A study of Mus musculus with 13 samples.

Results

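The genes described here are the zinc finger genes of mouse chromosome 7 whose symbol is Zfp followed by a number alone. They were taken from the deposited expression table by symbol and by locus on the mm9 build, without regard to their level, and they number 84 of the 23217 genes in the table. The set was selected on measured values: it was chosen because the FPKM of one of its genes, Zfp566, was lower in xHomo than in xHet embryos, and the question was whether the genes clustered around it moved with it. The difference between the groups therefore led to the choice, and values of that contrast are given as description. Counts of limma calls on it stand beside the share of all genes called, and nothing about the members is read from them.

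Polyadenylated RNA was sequenced from 13 whole embryos of embryonic day 9.5, 10 called xHomo and 3 called xHet, all on the C57BL/6J background. Neither name is explained in the labels. The study was of Tet1, whose product oxidizes 5-methylcytosine in DNA, and as far as the study is known the fathers of the xHomo embryos were homozygous and those of the xHet embryos heterozygous for a Tet1 mutation. Values are FPKM, the fragments of a gene divided by its transcript length and by the total mapped in that library.

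Most zinc finger genes of this kind encode proteins with tandem C2H2 fingers, each finger holding a zinc ion and touching a few bases of DNA. Many also carry a KRAB domain, which recruits the corepressor Trim28 and, through it, the histone methyltransferase Setdb1 and heterochromatin proteins to silence transposable elements and nearby genes. They arose largely by tandem duplication, and in the mouse they lie in clusters where neighbours have closely related sequences. Not every member is of this type: Zfp36 encodes tristetraprolin, a CCCH protein that binds AU-rich RNA.

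Tet1 itself had a lowest value of 1.11, a median of 2.11 and a highest value of 2.87 FPKM in xHomo embryos, against 2.61, 1.93 and 2.51 FPKM in xHet embryos 1 to 3, so the groups overlapped. Summed FPKM ran from 500126 to 662936 in xHomo and from 543948 to 570161 in xHet embryos, and the read depth behind the values is unknown. The X-inactivation RNA Xist was at 30.5 to 158.8 FPKM in 5 xHomo embryos and at 0.05 to 0.10 FPKM in the other 5, against 0.05 to 0.08 FPKM in the 3 xHet embryos, so the groups were not balanced for sex. All 4 nervous system, all 3 heart and all 4 primitive erythroid marker genes were above a mean of 1 FPKM, and 0 of 4 trophoblast genes were. Of 3 decidua genes 2 were, Cryab and Bmp2, with sums over the 3 genes of 7.36 to 12.8 FPKM in xHomo and 8.19 to 10.2 FPKM in xHet embryos. The remaining decidua gene, Prl8a2, was at most 0.18 FPKM in xHomo embryos and at 0 FPKM in xHet embryos. The 4 trophoblast genes summed to 0.33 to 4.59 FPKM in xHomo and 0.34 to 0.92 FPKM in xHet embryos. Prl2c2 was at 0.59, 2.54, 0, 0.37, 0.22, 0.97, 2.51, 0.87, 1.41 and 1.6 FPKM in xHomo embryos 1 to 10. In xHet embryos 1 to 3 Prl2c2 was at 0.18, 0.5 and 0 FPKM. Prl3d1 was at 1.01, 0, 0.13, 0.4, 0.44, 0.04, 0.5, 0.11, 0.03 and 2.67 FPKM in xHomo embryos 1 to 10. In xHet embryos 1 to 3 Prl3d1 was at 0, 0.24 and 0.05 FPKM. The adult globin gene Hbb-b1 had 5.34 FPKM in xHomo embryo 3, while every other embryo listed it at 0. Ptprc, the other gene listed for maternal or definitive blood, had 0.08 FPKM in xHomo embryo 3. Over all embryos Ptprc ran from 0 to 0.3 FPKM in xHomo and from 0 to 0.08 FPKM in xHet. The heart markers summed to 169 to 306 FPKM in xHomo and 181 to 189 FPKM in xHet embryos. The primitive erythroid markers summed to 4128 to 12587 FPKM in xHomo and 8343 to 8580 FPKM in xHet embryos, and those of yolk sac endoderm to 10.1 to 65.9 FPKM in xHomo and 29.6 to 41.6 FPKM in xHet embryos. The part of these differences in the results below was not tested. xHomo embryos 3 and 9 stood apart: their correlations with the other embryos averaged 0.921 and 0.920, against 0.936 to 0.941 for the rest. Several results below, but not all, are given with and without xHomo embryo 3 or 9.

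The members were broadly present at low to moderate levels. Of the 84 members, 68 had a mean of at least 1 FPKM over the 13 embryos, the level required for a gene to be tested, which is 81.0% against 88.3% of the 256 Zfp genes on other chromosomes and 54.9% of all genes in the table. At this limit Zfp109 stood just inside with a mean of 1.03 FPKM and Zfp619 just outside with 0.98 FPKM. Only 13 members had a mean of 10 FPKM or more, and 55 lay between 1 and 10 FPKM. The highest was Zfp146, with 27.3 ± 3.23 FPKM in xHomo (SD, n = 10) and 24.5 ± 0.973 FPKM in xHet embryos (SD, n = 3). Zfp428, Zfp771, Zfp260, Zfp553 and Zfp511 followed with means over all 13 embryos of 23.4, 23.0, 21.9, 18.8 and 13.7 FPKM. The means of Zfp428, Zfp771 and Zfp260 in xHomo embryos differed by less than the SDs of these genes.

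The members lay along chromosome 7 in 10 clusters holding 73 of them, where a cluster is a run of members with gaps of at most 500 kb between loci, and 11 stood alone. The cluster of Zfp566 holds the most. It has 15 members from Zfp84 to Zfp146 over 401 kb (mm9 chr7:30553571-30954746, counted from 1), and Zfp566 is number 12 in chromosomal order. Its nearest members are Zfp82, 4.51 kb before it, and Zfp260, 4.57 kb after it. Of the 15 members 14 passed the level for testing. Zfp14, with 0.863 ± 0.176 FPKM in xHomo and 0.850 ± 0.262 FPKM in xHet embryos, did not.

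Zfp566, a C2H2 zinc finger gene (mm9 chr7:30862356-30875529), was at 7.81, 6.56, 5.47, 6.27, 6.29, 5.71, 6.48, 6.29, 6.49 and 5.70 FPKM in xHomo embryos 1 to 10, against 9.79, 8.29 and 9.55 FPKM in xHet embryos 1 to 3. All 10 xHomo embryos were below the lowest xHet embryo, and the closest was xHomo embryo 1. The means were 6.31 ± 0.651 FPKM in xHomo and 9.21 ± 0.806 FPKM in xHet embryos, a difference of -0.48 on the log2(FPKM + 1) scale (SE 0.09). It was the lowest difference of the 68 members and the 210th lowest of the 12755 genes tested, values of the contrast that led to its choice. In the 5 xHomo embryos that matched the xHet embryos in their low Xist, Zfp566 was 5.71 to 7.81 FPKM, and in the 5 with high Xist it was 5.47 to 6.56 FPKM. In whole embryos, fewer cells of a type and less RNA per cell cannot be told apart.

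Neither flanking member showed this separation. Zfp82 (mm9 chr7:30841053-30857842) had a lowest value of 2.93, a median of 4.91 and a highest of 6.70 FPKM in xHomo embryos, against 4.69, 4.55 and 5.53 FPKM in xHet embryos, so the groups overlapped throughout. Its log2 difference was -0.02 (SE 0.17), and 0.04 without xHomo embryo 3. Zfp260 (mm9 chr7:30880095-30892633), which encodes a C2H2 zinc finger transcription factor, had a lowest value of 18.60, a median of 23.6 and a highest of 24.66 FPKM in xHomo embryos, against 17.99, 21.58 and 16.86 FPKM in xHet embryos. Here 8 of 10 xHomo embryos were above the highest xHet embryo, and the log2 difference was 0.27 (SE 0.10), opposite in sign to that of Zfp566.

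Of the 13 tested neighbours in the cluster, 5 had a positive and 8 a negative difference, with a median of -0.0048 log2, beside 0.046 for all genes tested, and without xHomo embryo 3 8 were positive and 5 negative with a median of 0.036, beside 0.081 for all genes. Without xHomo embryo 9 7 were positive and 6 negative. Zfp30 (mm9 chr7:30569809-30579559), near the other end of the cluster, had a lowest value of 2.51, a median of 3.05 and a highest of 3.73 FPKM in xHomo embryos, against 2.27, 1.96 and 2.0 FPKM in xHet embryos. All 10 xHomo embryos were above the highest xHet embryo. Its log2 difference was 0.37 (SE 0.11), the largest of the 68 members. Zfp382 had the lowest difference among the neighbours, -0.21 (SE 0.14), with 1.30 ± 0.313 FPKM in xHomo and 1.66 ± 0.306 FPKM in xHet embryos. Zfp568, a KRAB zinc finger gene needed for morphogenesis of the mouse embryo, stood at 11.4 ± 1.34 FPKM in xHomo and 12.6 ± 0.642 FPKM in xHet embryos, a difference of -0.14 (SE 0.10), and 6 of 10 xHomo embryos were below the lowest xHet embryo. Zfp146, at the end of the cluster, had a difference of 0.14. The other 8 tested neighbours, Zfp84, Zfp790, Zfp940, Zfp420, Zfp27, Zfp383, Zfp74 and Zfp82, lay between -0.10 and 0.13.

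**Figure D1:**
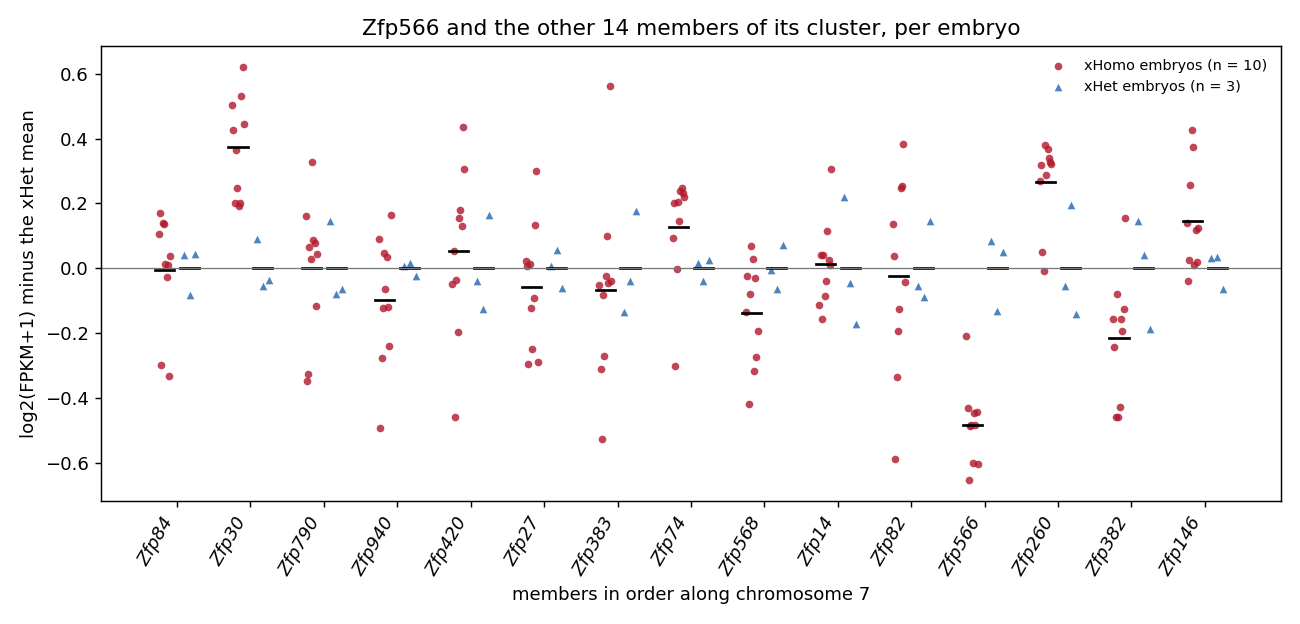
Levels of the 15 members of the Zfp566 cluster in chromosomal order, as log2(FPKM + 1) minus the mean of the xHet embryos, with circles for the 10 xHomo embryos, triangles for the 3 xHet embryos and a bar at each group's mean. The xHomo points of Zfp566 all lie below its xHet points, those of Zfp30 all lie above, and the groups overlap in the other 13 members.

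Promoter sequences show how the starts of these genes lie and differ. RefSeq promoter windows on GRCm38.p6, from 250 bases before to 50 bases after the start, were found for 75 of the 84 members and for 14 of the 15 in the cluster, 7 on each strand. Coordinates of windows are GRCm38.p6 and are not comparable with the mm9 loci. The starts of Zfp566 and Zfp260 are 4.57 kb apart on opposite strands, and those of Zfp566 and Zfp82 are 17.7 kb apart on the same strand. The 4 windows shown belong to Zfp566, the pair that flanks it and Zfp30, and are printed 5′ to 3′ on the strand of the gene: Zfp566 at chr7:30090461-30090760 (minus), Zfp260 at chr7:30094826-30095125 (plus), Zfp82 at chr7:30072774-30073073 (minus) and Zfp30 at chr7:29783718-29784017 (plus). Capitals mark matches, on either strand, to the element of Zfp143 (in Zfp566 and, reversed, in Zfp260), to that of YY1 (GCCATNTTG, the first in Zfp566) or to the palindromic element of NRF1 (in Zfp82 and Zfp30).
Zfp566: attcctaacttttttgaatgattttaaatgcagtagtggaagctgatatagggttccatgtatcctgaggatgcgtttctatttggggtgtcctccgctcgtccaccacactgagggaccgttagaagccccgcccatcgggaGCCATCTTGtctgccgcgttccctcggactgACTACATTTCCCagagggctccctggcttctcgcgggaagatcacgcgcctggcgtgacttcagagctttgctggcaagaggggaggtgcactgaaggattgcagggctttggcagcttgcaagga
Zfp260: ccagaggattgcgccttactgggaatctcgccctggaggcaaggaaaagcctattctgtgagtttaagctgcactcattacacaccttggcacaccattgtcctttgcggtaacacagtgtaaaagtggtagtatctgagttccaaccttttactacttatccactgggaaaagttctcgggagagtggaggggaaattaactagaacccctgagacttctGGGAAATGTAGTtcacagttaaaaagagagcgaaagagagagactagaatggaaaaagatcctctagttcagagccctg
Zfp82: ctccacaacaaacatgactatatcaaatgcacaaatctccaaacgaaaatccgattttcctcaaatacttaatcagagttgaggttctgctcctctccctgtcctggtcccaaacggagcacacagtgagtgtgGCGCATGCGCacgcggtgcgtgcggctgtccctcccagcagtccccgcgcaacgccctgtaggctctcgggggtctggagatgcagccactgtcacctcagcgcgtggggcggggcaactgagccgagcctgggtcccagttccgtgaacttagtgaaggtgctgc
Zfp30: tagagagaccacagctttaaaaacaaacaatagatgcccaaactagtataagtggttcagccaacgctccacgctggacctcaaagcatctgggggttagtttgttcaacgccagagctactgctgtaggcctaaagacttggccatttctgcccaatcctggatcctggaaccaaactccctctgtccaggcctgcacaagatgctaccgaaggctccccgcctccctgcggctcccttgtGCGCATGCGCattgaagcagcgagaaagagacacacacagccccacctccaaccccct

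The motifs were searched after the values and sequences had been seen, and a match is a description of letters, not a bound site. The Zfp143 element was in 10 of the 15 windows of the cluster (66.7%, where Zfp27 has 2 windows) and in 19 of 85 windows of all members (22.4%), against 25 of 277 windows of Zfp genes on other chromosomes (9.03%) and 311 of 32851 windows in all (0.947%). Neighbouring members share ancestry, so these windows are not independent. The YY1 element was in 7 of 85 member windows (8.24%) and 2.51% of all, and in the cluster only in that of Zfp566. The NRF1 element was in 5 of 85 (5.88%) and 0.971% of all, and in the cluster in those of Zfp30 and Zfp82. A TATAAA box was in 6 of 85 member windows (7.06%), against 13.6% of all. Windows of the members had a median GC content of 55% and a median of 15 CpG dinucleotides, against 52.7% and 7 over all promoters. The 10 elements of the cluster are shown in chromosomal order with 10 bases on each side, on the strand of the element and with the element in capitals, since they show how far the starts of these genes share sequence.
Zfp84: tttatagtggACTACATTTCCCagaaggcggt
Zfp790: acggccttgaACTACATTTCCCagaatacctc
Zfp940: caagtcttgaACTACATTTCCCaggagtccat
Zfp420: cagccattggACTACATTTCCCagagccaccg
Zfp383: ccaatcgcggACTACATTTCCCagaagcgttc
Zfp74: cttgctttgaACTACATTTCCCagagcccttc
Zfp14: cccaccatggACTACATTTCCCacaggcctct
Zfp566: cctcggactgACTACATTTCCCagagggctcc
Zfp260: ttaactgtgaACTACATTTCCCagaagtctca
Zfp146: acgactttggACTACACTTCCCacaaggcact

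Of these 10 elements 9 read ACTACATTTCCC, and that of Zfp146 reads ACTACACTTCCC. Their centres lay 8 to 124 bases upstream of the start, 4 on the strand of the gene and 6 on the other. The 9 tested cluster members with the element ran from -0.48 to 0.27 in log2 difference, 4 of them positive and 5 negative. Zfp143, whose product binds this element and which is itself a member, stood at 8.43 ± 0.997 FPKM in xHomo and 9.10 ± 0.387 FPKM in xHet embryos, a difference of -0.10 (SE 0.10).

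Along the whole chromosome most members lay close to the xHet level. Their median log2 difference was 0.053, with 43 of 68 positive and 25 negative, beside a median of 0.046 over all 12755 genes tested, of which 59.7% were positive. Rescaled to TPM the median was -0.0054 with 34 positive and 34 negative, and with median-of-ratios scaling 38 were positive and 30 negative. Zfp genes on other chromosomes had a median of -0.013, with 107 positive and 119 negative, and the other genes of chromosome 7 had 0.066. Leaving aside Zfp566, 0 of the 67 other members passed an adjusted p under 0.05 in limma, where 0.0235% of all genes tested passed as higher and 0% as lower. At an unadjusted p under 0.05 in limma 5 of these 67 were higher and 0 lower, where 7.63% of all genes were higher and 1.72% lower. Groups did not overlap for 1 member on each side, Zfp30 as higher and Zfp566 as lower, where 1.66% of all genes did so as higher and 0.58% as lower. With array weights, which weight each embryo by its own scatter, limma called 16 of 68 members and 21.8% of all genes. Of these 16, 14 were higher and 2 lower, and the 68 include Zfp566.

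The members with the largest differences lay in several clusters. On the higher side were Zfp580 with a difference of 0.32, or 0.24 without xHomo embryo 9 (11.2 ± 3.63 FPKM in xHomo and 8.42 ± 0.829 FPKM in xHet embryos), Zfp428 with 0.27 (24.5 ± 2.56 FPKM in xHomo and 20.1 ± 0.560 FPKM in xHet embryos), Zfp747 with 0.26 and Zfp128 with 0.24. In Zfp428 9 of 10 xHomo embryos were above the highest xHet embryo. On the lower side were Zfp784 with -0.27 (2.48 ± 0.560 FPKM in xHomo and 3.15 ± 0.123 FPKM in xHet embryos), Zfp59 with -0.23, Zfp61 with -0.20 and Zfp667 with -0.19. The members nearest to the Zfp566 cluster were Zfp59, Zfp607 and Zfp36 before it, with differences of -0.23, -0.07 and 0.12, and Zfp507, Zfp536 and Zfp939 after it, with 0.08 and 0.16 for Zfp507 and Zfp536 and a level too low to test for Zfp939. In the distal cluster from Zfp553 to Zfp646 (mm9 chr7:134376957-135034484) all 10 members had a positive difference with a median of 0.10, but 8 did with median-of-ratios scaling and 7 rescaled to TPM.

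**Figure D2:**
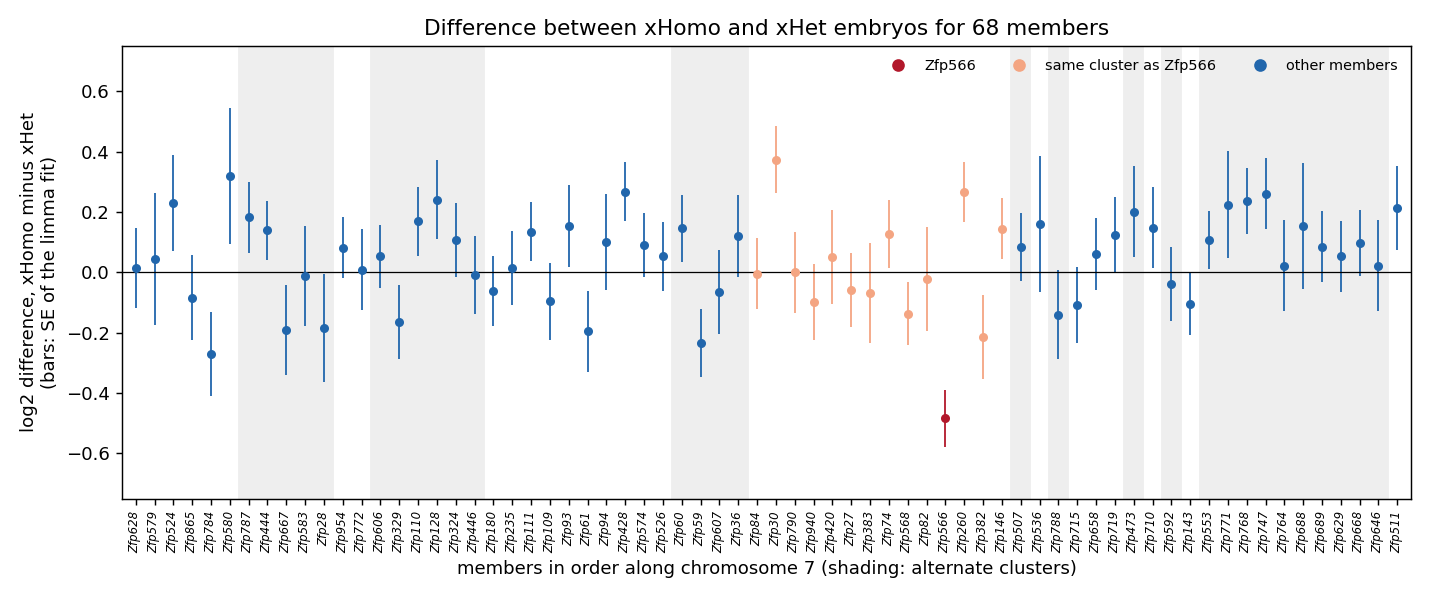
Log2 difference, xHomo minus xHet, of the 68 tested members in chromosomal order, with points for the fitted difference and bars for its SE, and grey bands that separate clusters. Zfp566 at -0.48 is the lowest and Zfp30 at 0.37 the highest, and the other members of the Zfp566 cluster lie on both sides of 0.

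The 16 members below the level for testing had log2 differences of -0.28 to 0.13, with a median of -0.02. The lowest was Zfp819, with 0.347 ± 0.153 FPKM in xHomo and 0.640 ± 0.223 FPKM in xHet embryos, and the highest was Zfp575, with 0.926 ± 0.366 FPKM in xHomo and 0.740 ± 0.178 FPKM in xHet embryos. Zfp575 overlaps Ethe1 in the table, as 4 other members overlap another gene, and their reads may be shared. Reads from near-identical finger repeats may also have been split between members, so small differences between paralogues are uncertain.

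Peg3, an imprinted zinc finger gene outside the naming rule, lies between the members Zfp28 and Zfp954, and these were looked at after its values had been seen. In xHomo embryos 4 and 1 Peg3 was at 0.05 and 4.99 FPKM, against 29.72 to 32.62 FPKM in xHet embryos. In the same pair of embryos Zfp28 was at 3.14 and 2.87 FPKM, against 2.91 to 3.33 FPKM in xHet embryos, and Zfp954 was at 2.86 and 3.89 FPKM, against 2.72 to 3.46 FPKM in xHet embryos. Both members were in or near the xHet range where Peg3 was far below it.

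The members stayed within 1 log2 unit of the xHet mean in every embryo. None of the 68 departed by 1 unit or more from the xHet mean, taken without the embryo itself where that was xHet, in any of the 13 embryos, while 1.45% to 10.2% of all genes tested did so in xHomo and 1.09% to 1.14% in xHet embryos. The largest departure was 0.97, of Zfp580 in xHomo embryo 9, and without that embryo it was -0.90, of Zfp28 in xHomo embryo 3, while the added 1 FPKM damps departures of low genes. The SD among embryos on the log2 scale had a median over the members of 0.19 in xHomo and 0.084 in xHet embryos, beside 0.23 in xHomo and 0.098 in xHet embryos over all genes tested, and 62 of 68 members (91.2%) had the larger SD in xHomo embryos, against 90.3% of all genes tested. For Zfp genes on other chromosomes the median SD was 0.21 in xHomo and 0.091 in xHet embryos, and their departures of 1 unit were not counted. The largest SDs among xHomo embryos were those of Zfp580, Zfp579, Zfp536, Zfp688, Zfp771 and Zfp28, between 0.31 and 0.41, and that of Zfp566 was 0.12. xHomo embryos 7, 8 and 9 had the highest values of Zfp771, at 28.90, 33.15 and 31.37 FPKM, and also of Zfp580, at 14.67, 15.98 and 17.46 FPKM.

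The summed FPKM of the 84 members was 454 ± 41.1 in xHomo and 426 ± 4.07 in xHet embryos, from 355 to 497 in xHomo and from 424 to 431 in xHet embryos. The lowest sum was that of xHomo embryo 3. There the median departure was -0.26 for the members, -0.30 for the neighbours of Zfp566, -0.38 for Zfp genes on other chromosomes and -0.27 for all genes tested. The shift in that embryo was thus as large over all genes as over the members.

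**Figure D3:**
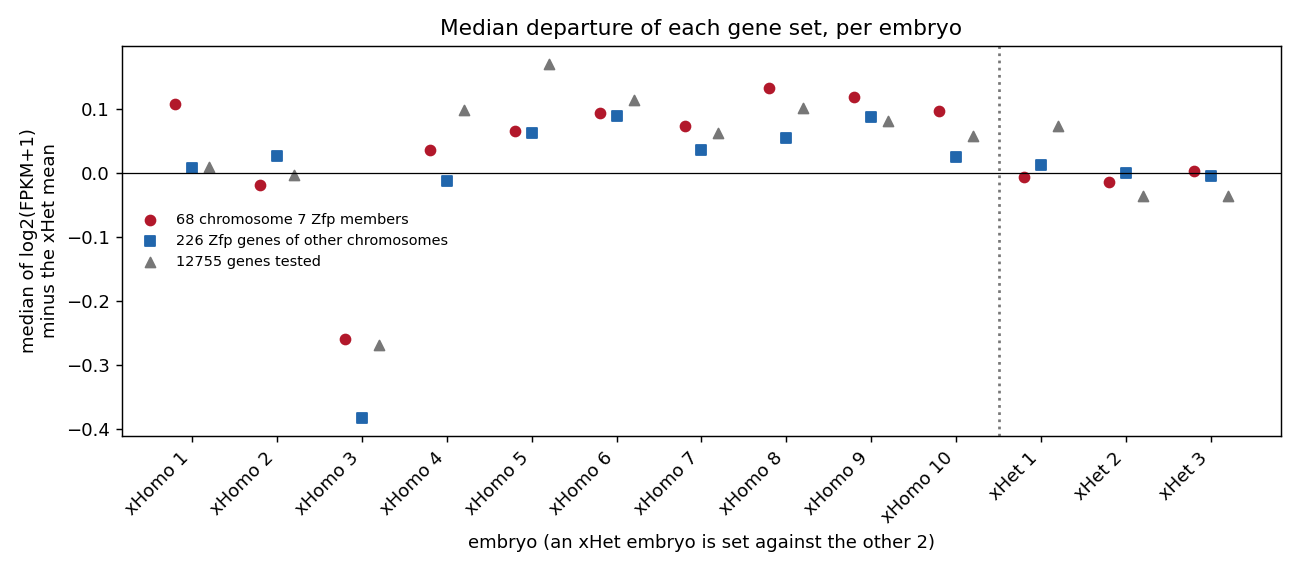
Median of log2(FPKM + 1) minus the xHet mean in each embryo, with circles for the 68 tested members, squares for 226 Zfp genes of other chromosomes and triangles for all 12755 genes tested. xHomo embryo 3 is the lowest in each of these sets, from -0.38 to -0.26.

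Whether neighbours moved with Zfp566 was next asked among the 10 xHomo embryos. The choice rested on the difference between the groups, but a small spread among xHomo embryos favours such a choice. On the log2 scale the SD of Zfp566 among these embryos was 0.12, beside a median of 0.19 over the members. The correlation with Zfp566 on the log2 scale had a median of 0.26 over the 13 neighbours, from -0.14 to 0.60, with 12 positive. The other 54 members tested had 0.27, Zfp genes on other chromosomes 0.27, other genes of chromosome 7 0.21, the 42 genes other than members within 1 Mb of Zfp566 0.35, and all genes 0.15. Without xHomo embryo 3 the medians were -0.023 for the neighbours, 0.012 for the other members and -0.15 for all genes, and without xHomo embryo 9 the median of the neighbours was 0.24. Over 12723 genes adjusted together, 0 of 67 members and 0% of all genes passed at an adjusted permutation p under 0.05, with Pearson's r or with Spearman's rho. At an unadjusted permutation p under 0.05, 1 member had a positive and 0 a negative r, where 2.25% of all genes did so as positive and 1.89% as negative, and 4 members passed by rho, where 4.93% of all genes did. Missing the threshold over 10 embryos does not show that a member varied apart from Zfp566.

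Among the neighbours, Zfp27 had the highest r, 0.604 (permutation p = 0.0608, adjusted 0.782), with rho 0.729 (permutation p = 0.0205, adjusted 0.976), and r was 0.740 without the 2 embryos farthest from the Zfp566 median, xHomo embryos 1 and 3. Zfp82 followed with r 0.558 (permutation p = 0.0919, adjusted 0.782) and rho 0.663 (permutation p = 0.0412, adjusted 0.976), and r was 0.424 without those 2 embryos. Zfp260, the closest on the other side, had r 0.256 (permutation p = 0.432, adjusted 0.825) and rho 0.249 (permutation p = 0.485, adjusted 1), and r was 0.0618 without those 2 embryos. Without xHomo embryo 3 alone, r was 0.499 for Zfp27, 0.362 for Zfp82 and -0.0228 for Zfp260. Of all members Zfp658, in another cluster at mm9 chr7:50817740-50830831, had the highest r, 0.833 (permutation p = 0.00273, adjusted 0.782), with rho 0.735 (permutation p = 0.0183, adjusted 0.975). Its r was 0.520 without xHomo embryos 1 and 3, and its levels were 2.46 ± 0.411 FPKM in xHomo and 2.30 ± 0.146 FPKM in xHet embryos. Zfp235 and Zfp61 came next with 0.618 and 0.611, but without xHomo embryos 1 and 3 their r was -0.119 and 0.228. Zfp428 and Zfp772 had the lowest r, -0.390 and -0.283, and 0.0556 and -0.623 without xHomo embryos 1 and 3. The genes of any kind with the highest r were the replication histone genes Hist1h2bg, Hist1h4h, Hist1h2bh and Hist1h4j on chromosome 13. Their r was 0.946, 0.927, 0.920 and 0.897 over the 10 embryos, with adjusted permutation p of 0.509 or more. Each was highest in xHomo embryo 1, as was Zfp566. Their log2 differences between the groups were 0.38, 0.47, 0.53 and 0.64, opposite in sign to that of Zfp566. Without xHomo embryos 1 and 3 their r was 0.865, 0.794, 0.951 and 0.535.

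**Figure D4:**
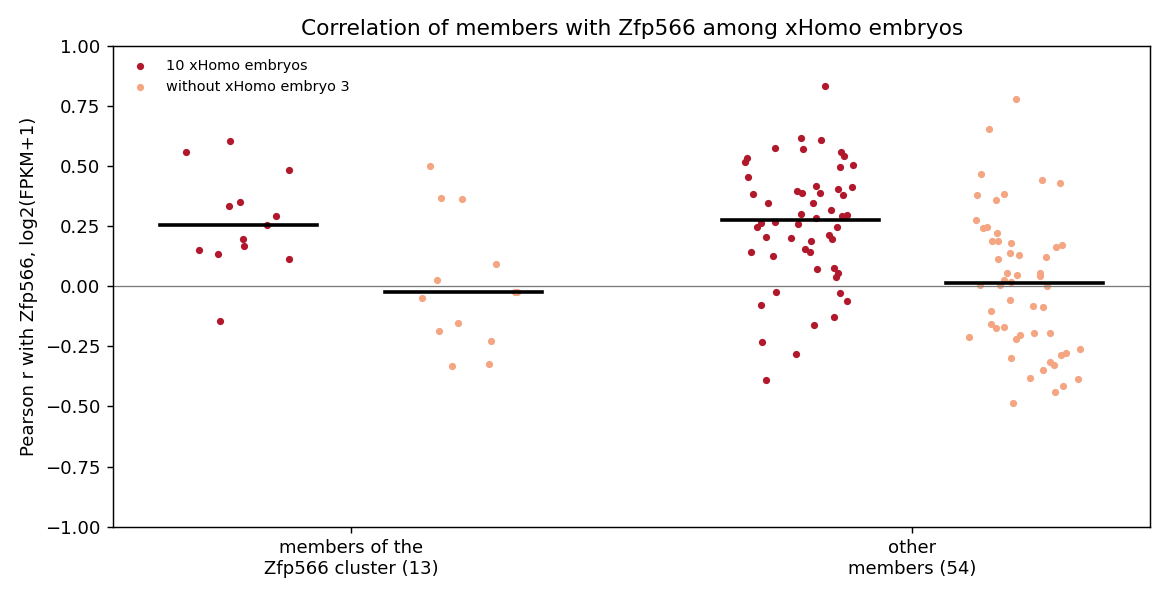
Pearson r with Zfp566 of log2(FPKM + 1) for each tested member, with the 13 neighbours in its cluster on the left and the other 54 members on the right, dark points over 10 xHomo embryos, light points without xHomo embryo 3, and a bar at each median. The medians of 0.26 and 0.27 over 10 embryos lie at -0.023 and 0.012 without embryo 3.

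Members next to each other on the chromosome and members far apart had similar correlations. The median r among xHomo embryos was 0.33 over 44 adjacent pairs, 0.24 over 187 other pairs of the same cluster and 0.34 over 2047 pairs of different clusters, and without xHomo embryo 3 these were 0.061, -0.041 and 0.041. Pairs share embryos and genes, so this is a description with no test. The adjacent pair with the highest r was Zfp629 and Zfp668 in the distal cluster, with 0.922, and these lie 251 kb apart.

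Genes that are not zinc fingers also lie within 200 kb of Zfp566. Capns1, the small subunit of the calpain proteases, 96.4 kb away, stood at 62.3 ± 6.37 FPKM in xHomo and 46.2 ± 2.52 FPKM in xHet embryos. Its difference was 0.42 (SE 0.10), and all 10 xHomo embryos were above the highest xHet embryo. Of the 43 tested genes other than members within 1 Mb, 1 was separated in this way, as were 1.66% of all genes. Another 1 of these 43 had all 10 xHomo embryos below the lowest xHet embryo, as had Zfp566 and 0.58% of all genes. The log2 differences of these 43 ran from -1.94 to 0.54. Cox7a1, a cytochrome oxidase subunit, stood at 7.86 ± 2.50 FPKM in xHomo and 4.95 ± 0.311 FPKM in xHet embryos, a difference of 0.53 (SE 0.21). The differences of Tbcb, Polr2i and Wdr62 were 0.16, 0.06 and -0.20. Gm5113, 79.4 kb away, had r 0.808 with Zfp566 (permutation p = 0.0108, adjusted 0.782) and rho 0.674 (permutation p = 0.0374, adjusted 0.976), but r was 0.219 without xHomo embryos 1 and 3.

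The corepressor through which KRAB zinc fingers act was measured alongside. Of 28 listed genes of this pathway 27 were found and tested, 19 with a positive and 8 with a negative difference and a median of 0.077 log2, and 0 passed an adjusted p under 0.05 in limma. Over all genes tested 59.7% were positive and the median was 0.046. At an unadjusted p under 0.05 in limma 2 of the 27 were higher, Cbx3 and Mbd3, and 0 lower, where 7.63% of all genes were higher and 1.72% lower. Trim28 stood at 259 ± 25.9 FPKM in xHomo and 244 ± 19.7 FPKM in xHet embryos. Setdb1 stood at 25.3 ± 3.58 FPKM in xHomo and 26.8 ± 0.295 FPKM in xHet embryos, and xHomo embryo 3 was lowest at 16.17 FPKM. Zfp57 is a KRAB zinc finger gene that maintains methylation at imprints and lies on another chromosome. It stood at 34.5 ± 9.17 FPKM in xHomo and 36.8 ± 1.5 FPKM in xHet embryos. Its xHomo values ran from 18.49 FPKM in embryo 3 to 54.90 FPKM in embryo 9.

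The labels do not say whether embryos came from separate litters, so p-values measure only the spread between these samples.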

How the data were processed

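FPKM values of each gene in each embryo, with mm9 loci, were deposited by the authors in 1 table. The submitters' processing notes name TopHat, Cufflinks and bcl2fastq 1.8.2, and per the labels' protocols poly(A) RNA from RNeasy columns went into directional libraries. For TopHat and Cufflinks the version, and for the table the annotation, filters and use of strand, were not given in the sources used here. An FPKM value holds no count, so depth is unknown and no interval from counts is given. Locus starts were counted from 0 in the table and are printed from 1.

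The names xHomo and xHet in the sample titles gave the groups. Genes with a mean of at least 1 FPKM, 12755 in all, were compared on log2(FPKM + 1), a scale that understates changes of low genes, with limma 3.58.1 in R 4.3.3 (trend, two-sided, Benjamini-Hochberg at 0.05). Correlations with Zfp566 used 100000 permutations, two-sided, adjusted over 12723 genes, the ones with a value that varied among xHomo embryos. Python 3.11.15, numpy 2.4.6, pandas 2.3.3, scipy 1.17.1 and matplotlib 3.10.9 were used. The limma and correlation steps were tested on simulated data. The members, lists and named genes were chosen with earlier results of these data known. Named were Zfp566, its cluster, the 3 nearest members on each side, the 6 members with the largest positive, negative, SD and mean values, the 4 highest and 2 lowest correlations with the 4 most like genes of any kind, genes within 200 kb, and Trim28, Setdb1, Zfp57 and passing genes of the pathway list. Members outside this rule were named after their values were seen. The planned search of proteins for domains was not run.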

Additional observations from a re-analysis of the deposited data

Results flagged for a closer look

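Among the named members, 6 had 1 xHomo embryo far below the other 9 and 1 had an embryo far above: each was past Dixon's 95% limit for 10 samples in the gap to the nearest embryo as a share of the whole range on the log2 scale. xHomo embryo 3 was the low one in all 6: Zfp507 with a gap of 0.742 (4.92 FPKM), Zfp74 with 0.544 (2.61 FPKM), Zfp28 with 0.526 (1.22 FPKM), Zfp235 with 0.502 (1.25 FPKM), Zfp579 with 0.499 (5.07 FPKM) and Zfp61 with 0.470 (4.84 FPKM). The high one was Zfp566 itself in xHomo embryo 1, with a gap of 0.496 (7.81 FPKM). Over all 68 tested members 13 were past this limit (19.1%), 12 of them low in xHomo embryo 3 (17.6%). Chance passes about 1 in 20 groups, but of all 12755 genes tested 22.8% were past the limit and 19.2% were low in xHomo embryo 3, so the members had no larger share than all genes.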

How the results depend on the processing

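The difference of Zfp566 was negative under all alternatives run, from -0.58 rescaled to TPM to -0.33 with a pseudocount of 5, which damps it by construction. Leaving out 1 embryo gave -0.55 (without xHet embryo 2) to -0.44 (without xHet embryo 1). The same pseudocount gave a median SD of the members among xHomo embryos of 0.11, and leaving out 1 embryo gave 0.16 to 0.20. The count of members called by limma was 0 under each alternative except array weights, which called 16 of 68 and 2779 of 12755 genes. The cause was not tested. Leaving out 1 embryo gave a median difference of the members of 0.047 to 0.096. The median r of the neighbours with Zfp566 ran from -0.023 without xHomo embryo 3 to 0.38 without xHomo embryo 1, and was -0.12 without both, an alternative chosen after seeing the data. Among 34 other named members 3 of 727 recomputed values moved by more than the spread between embryos, and 44 turned sign, in 13 genes.

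Embryos 1 to 3 of both groups share numbers, but same-numbered embryos did not deviate together (correlations of -0.065, -0.040 and -0.038). The numbers were therefore not used as pairs. So few correlations cannot show whether same-numbered embryos shared a litter or batch. With a replicate block over these 6 embryos the median difference of the members was -0.079, beside -0.087 for all genes, and that of Zfp566 was -0.432. The lowest member was then Zfp28, at -0.436, and not Zfp566. Under this block 4 of the 10 members of the distal cluster from Zfp553 to Zfp646 were positive and 6 negative, with a median of -0.0086.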
